A study of Homo sapiens with 4 samples.

Results

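The BCL2 family decides whether a cell commits to apoptosis through its mitochondria. Its 10 members described here, of 30982 gene names on the arrays, were taken by symbol from a list of the family's main regulators: BCL2, BCL2L1, MCL1, BAX, BAK1, BID, BAD, BCL2L11, BBC3 and PMAIP1. They were carried by 22 of the 41000 probes, and the rule that chose them uses the symbol alone. FaDu, a line derived from hypopharyngeal squamous cell carcinoma, and HSC3, a tongue squamous cell carcinoma line, were each transfected with miR-489 or miR-504. Total RNA taken 72 h after transfection was labelled with Cy5 and hybridised with Cy3-labelled RNA of control-miRNA transfectants of that line, with 1 array for each line and miRNA and 4 arrays in all. The transfection was transient, each tumour type was represented by a single established line, and the labels do not say whether the Cy3 samples of a line were separate cultures. By the title of the series, the arrays were made to identify target genes of miR-489 or miR-504 in head and neck cancer cells.

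The family works by binding among its own members. BCL2, BCL2L1 (which encodes BCL-XL) and MCL1 are survival proteins that hold the death-promoting members in check. BAX and BAK1 are the effectors that form pores in the outer mitochondrial membrane and release cytochrome c, after which caspases dismantle the cell. The BH3-only proteins BID, BAD, BCL2L11 (BIM), BBC3 (PUMA) and PMAIP1 (NOXA) sense stress and either occupy the survival proteins or activate the effectors. Squamous carcinomas commonly depend on BCL-XL and MCL1 for survival, and much of the regulation of the family lies in protein stability and phosphorylation, which RNA arrays do not measure.

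The mature sequences of the 2 miRNAs are shown because they are what separates the arrays of a line. The labels name no arm, and the arms printed are those listed in RefSeq that long carried these names without a suffix. Capitals mark the seed, bases 2 to 8 from the 5′ end, which pairs with target mRNAs. hsa-miR-489-3p lies on the minus strand at chr7:93483947-93483968, within the CALCR gene, and hsa-miR-504-5p on the minus strand at chrX:138667760-138667781, within the FGF13 gene (RefSeq, GRCh38.p14).
hsa-miR-489-3p: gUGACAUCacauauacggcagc
hsa-miR-504-5p: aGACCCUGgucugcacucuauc
Read position by position, the seeds have the same base at 2 of 7 positions, so they are different seeds.

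Each array held 43376 spots. Cy3 was well above background, by the mark of the scanner software, on 58.2% to 59.2% of them and Cy5 on 61.2% to 62.6%. Of 9 squamous epithelium markers 8 were on the arrays, and all 8 were above background in Cy3 on 4 arrays. Of 6 markers of fibroblasts, leukocytes and endothelium, 5 were above background in Cy3 on 0 arrays, and COL1A1 was above it on 2. The values below are log2 ratios of Cy5 over Cy3 after background subtraction, so that 1 is a 2-fold higher level in the miRNA transfectant. On each array the median of the spots well above background in both channels was set to 0. Of the 22 member probes, 18 were well above background in both channels on all 4 arrays, and for all 10 genes the brightest probe was among them. Replicate spots of a probe varied by a median SD of 0.0523 to 0.0591, which covers technical error within an array only; most member probes had 1 spot and so no such error. The dyes were not swapped, so the dye effect of a probe cannot be told apart from the effect of a miRNA against the control. It is common to the 2 arrays of a line and cancels in the difference between the miRNAs. In a bulk RNA sample, fewer cells with a transcript and less of it per cell cannot be told apart.

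**Figure D1:**
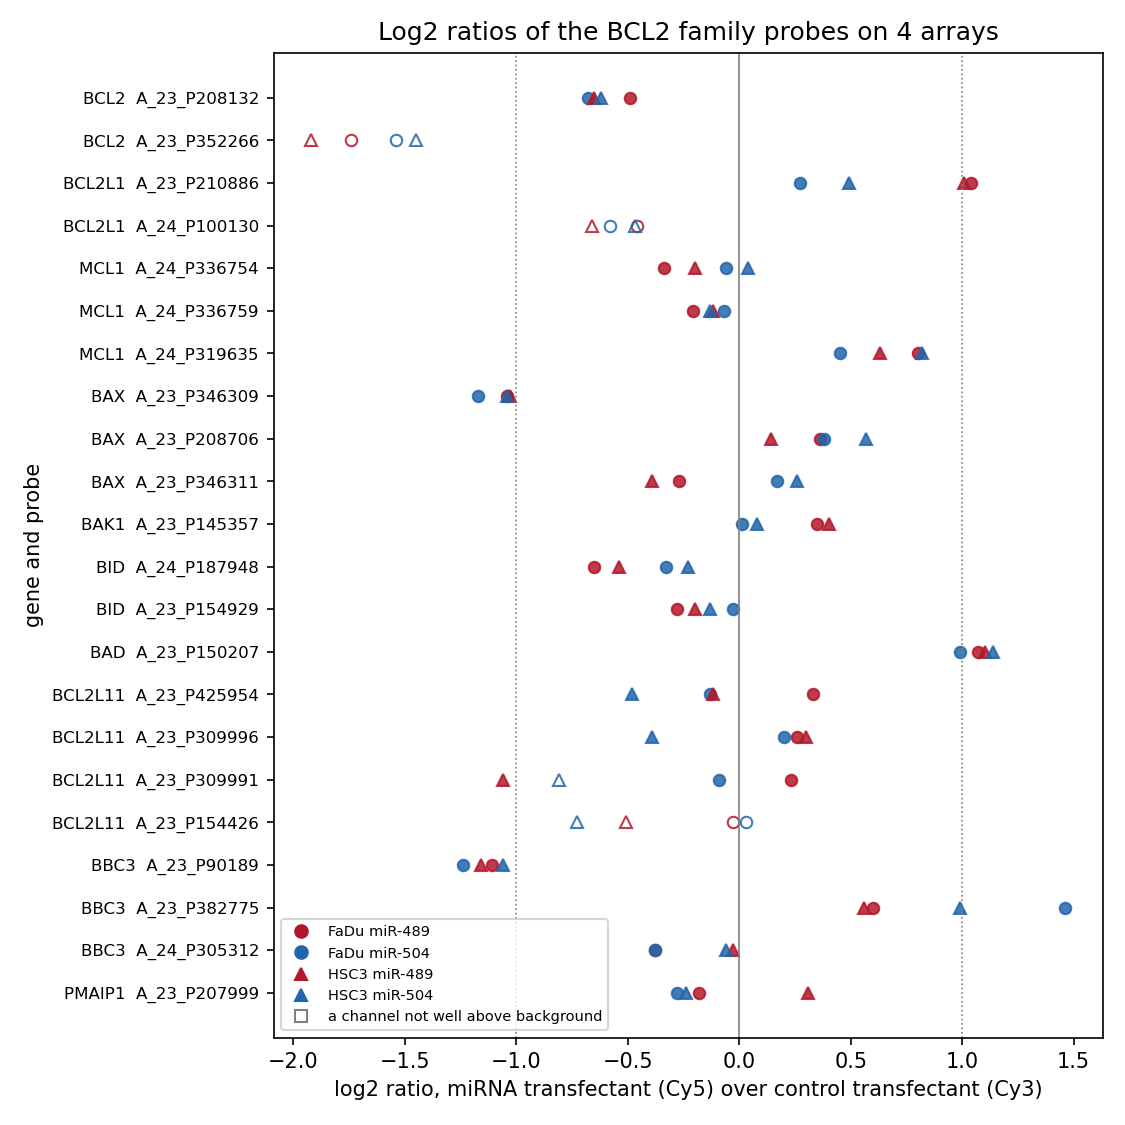
Log2 ratio (miRNA transfectant over control transfectant) of each BCL2 family probe on the 4 arrays; red is miR-489, blue miR-504, circles FaDu and triangles HSC3, open symbols have a channel not well above background, and dotted lines mark 2-fold. The BCL2L1 probe A_23_P210886 lies at 1.04 and 1.01 after miR-489 and at 0.27 and 0.49 after miR-504, whereas BAD and the brightest probes of BAX and BBC3 keep nearly the same ratio on all 4 arrays.

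Among the survival genes, BCL2L1 had the higher ratio after miR-489 in both lines. BCL2 differed little between the miRNAs on its only measured probe, and MCL1 had a slightly lower ratio after miR-489 on its brightest probe. The probe A_23_P210886 of BCL2L1, in up to 10 spots, gave 1.04 ± 0.148 (SD, n = 8 spots) on the FaDu miR-489 array and 0.27 ± 0.112 (n = 10 spots) on the FaDu miR-504 array. In HSC3 it gave 1.01 ± 0.0914 (n = 10 spots) after miR-489 and 0.49 ± 0.114 (n = 9 spots) after miR-504. Single spots ran from 0.77 to 1.21 against 0.10 to 0.46 in FaDu, and from 0.86 to 1.15 against 0.31 to 0.66 in HSC3. In neither line did the spots of the 2 arrays overlap. Each channel was also read as a log2 level relative to the median probe of the array. In FaDu, Cy5 was 0 and −0.41 after miR-489 and miR-504, and Cy3 was −1.17 and −0.88. In HSC3, Cy5 was 0.30 and −0.05, and Cy3 was −0.85 and −0.73. The control channel was thus lower on the miR-489 array in both lines, which makes up part of the ratio difference. The miR-489 ratio exceeded the miR-504 ratio by 0.77 in FaDu, which is 1.71-fold, and by 0.51 in HSC3, which is 1.43-fold. With the 2 lines as replicates of each miRNA, limma gave a difference of 0.64 (SE 0.126, 95% interval 0.32 to 0.96). Its Benjamini-Hochberg adjusted p over 20914 probes was 0.0979 (unadjusted p = 0.00339), or 0.0807 with the cell line as a block, so the difference was not called. The probe had the rank of 724 by p-value. Its signal was dim, with Cy3 between 118 and 201 intensity units after background subtraction, and the adjusted p ranged from 0.0499 to 0.099 over 7 other ways of scaling the arrays, the lowest with normexp and loess together.

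A further BCL2L1 probe, A_24_P100130, annotated to transcript variant 2, had Cy3 below the background criterion on all 4 arrays and gives no ratio. BCL2, the founding survival gene, was read by a probe for the BCL-2-beta transcript (A_23_P208132) at −0.49 and −0.68 in FaDu after miR-489 and miR-504, and at −0.65 and −0.62 in HSC3. All 4 arrays lay below 0 and within a narrow range. The limma difference between the miRNAs was 0.08 (SE 0.117, 95% interval −0.22 to 0.38). The BCL2 probe for the longer alpha transcript, A_23_P352266, was not well above background in either channel on any of the 4 arrays in its 10 spots, so the level of that transcript was not measured.

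MCL1, whose short-lived protein guards many carcinomas, had 3 probes that did not give the same ratio. The brightest, A_24_P336754, gave −0.34 and −0.06 in FaDu and −0.20 and 0.04 in HSC3 after miR-489 and miR-504, so the miR-489 array was the lower one in both lines, by 0.27 and 0.24. The limma difference was −0.26 (SE 0.117, adjusted p = 0.328). A neighbouring probe, A_24_P336759, gave −0.21, −0.07, −0.12 and −0.13 in the same order, with a difference of −0.06. The third, A_24_P319635, lies 3510 bases towards the 5′ end of the gene by the array's coordinates and gave 0.80, 0.45, 0.63 and 0.82. It was above 0 on every array where the others were mostly below. Which transcripts each probe reads was not tested.

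Of the effectors, BAK1 was slightly higher and 1 BAX probe lower after miR-489 than after miR-504, while the 3 BAX probes disagreed on the ratio against the control. BAK1 gave 0.35 and 0.01 in FaDu and 0.40 and 0.08 in HSC3. The differences of 0.34 and 0.32 were nearly the same in the 2 lines, and limma gave 0.33 (SE 0.108, 95% interval 0.05 to 0.61, adjusted p = 0.213). For BAX, a transcriptional target of p53, the brightest probe, A_23_P346309 (variant delta), gave −1.04, −1.17, −1.03 and −1.04 on the miR-489 and miR-504 arrays of FaDu and then of HSC3. All 4 values were past 2-fold and almost equal, and the limma difference between the miRNAs was 0.06 (SE 0.113).

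The BAX probe A_23_P208706 (variant epsilon, 10 spots) went the other way. It gave 0.36 ± 0.0646 and 0.38 ± 0.0527 (SD over spots) in FaDu and 0.14 ± 0.0439 and 0.57 ± 0.0462 in HSC3 after miR-489 and miR-504. Its spots overlapped between the FaDu arrays and were apart in HSC3, where they ran from 0.07 to 0.18 after miR-489 and from 0.48 to 0.64 after miR-504. The limma difference was −0.23 (SE 0.14, adjusted p = 0.454). The third BAX probe, A_23_P346311 (variant sigma), gave −0.27 and 0.17 in FaDu and −0.39 and 0.26 in HSC3. It was lower after miR-489 in both lines, by 0.44 and 0.65, and limma gave −0.54 (SE 0.116, 95% interval −0.84 to −0.25, adjusted p = 0.11). Over the 7 other scalings its adjusted p ran from 0.0444, with normexp and loess together, to 0.104. Its Cy5 log2 levels after miR-489 and miR-504 were 0.75 and 1.20 in FaDu and 1.44 and 1.79 in HSC3. Its Cy3 levels were 0.89 and 0.84 in FaDu and 1.69 and 1.35 in HSC3. For A_23_P208706 in HSC3, Cy5 was 4.67 and 4.95, and Cy3 was 4.39 and 4.19. The control channel thus made up part of the HSC3 difference on both probes. The brightest BAX probe did not share the lower ratio of A_23_P346311 after miR-489, with differences of 0.12 and 0.00. A_23_P208706 shared it mainly in HSC3 (−0.02 in FaDu and −0.44 in HSC3).

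The BH3-only genes differed from one another. BID, which links death receptor signalling to mitochondria once caspase-8 has cut it, had a lower ratio after miR-489. Its brightest probe, A_24_P187948, gave −0.65 and −0.33 in FaDu and −0.54 and −0.23 in HSC3 after miR-489 and miR-504. The differences were −0.32 and −0.30, and limma gave −0.31 (SE 0.116, 95% interval −0.60 to −0.02, adjusted p = 0.253). The second BID probe, A_23_P154929, gave −0.28, −0.03, −0.20 and −0.13, also lower after miR-489 in each line but by less (limma difference −0.16, SE 0.113). In HSC3, Cy5 of both probes was not lower after miR-489, at log2 levels of 4.89 against 4.66 and 2.24 against 2.10. The control channel was higher on that array, at 5.30 against 4.71 and 2.31 against 2.04. In FaDu, Cy5 was lower after miR-489, at 3.20 against 3.59 and 0.59 against 0.94. BAD, which binds BCL2 and BCL-XL and is inactivated by phosphorylation, gave 1.07 and 0.99 in FaDu and 1.10 and 1.14 in HSC3. Its ratios were about 2-fold above the control on all 4 arrays and barely apart between the miRNAs (limma difference 0.02, 95% interval −0.27 to 0.31).

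BCL2L11, a broad activator of apoptosis, was dim: Cy3 of its 2 measured probes was between 38 and 66.5 intensity units. A_23_P425954 gave 0.33 and −0.13 in FaDu and −0.12 and −0.48 in HSC3 after miR-489 and miR-504. A_23_P309996 gave 0.26, 0.20, 0.30 and −0.39. Both were higher after miR-489 in both lines, by 0.46 and 0.36 and by 0.06 and 0.69, with limma differences of 0.41 (SE 0.206, adjusted p = 0.364) and 0.37 (SE 0.212, adjusted p = 0.417). This depended on the scaling. With the log ratios that the authors deposited, A_23_P309996 gave 0.38 after miR-489 and 0.44 after miR-504 in FaDu. A_23_P425954 then gave −0.06 and −0.13 in HSC3. The other 2 probes of BCL2L11 were below the background criterion on at least 1 array.

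BBC3, a p53 target that neutralises all survival proteins, had 3 probes with 3 patterns. The brightest, A_23_P90189, gave −1.11, −1.24, −1.16 and −1.06 in the order used above, past 2-fold on every array, with a limma difference between the miRNAs of 0.01 (SE 0.12). A_23_P382775, which by the array's coordinates lies 7260 bases closer to the 3′ end of the gene, gave 0.60 and 1.46 in FaDu and 0.56 and 0.99 in HSC3 after miR-489 and miR-504. It was higher than the control everywhere and highest after miR-504. The miR-489 ratio was lower by 0.86 in FaDu and 0.43 in HSC3, and limma gave −0.65 (SE 0.181, 95% interval −1.11 to −0.18, adjusted p = 0.172). In HSC3, Cy5 was nearly the same after miR-489 and miR-504, at log2 levels of 1.78 and 1.86, while Cy3 was 1.09 and 0.69. The control channel thus made up most of the HSC3 difference. In FaDu, Cy5 was −0.33 and 0.67, and Cy3 was −1.06 and −0.98. The third, A_24_P305312, was dim and gave −0.38, −0.38, −0.03 and −0.06, so that the miRNAs differed by −0.01 and 0.03. Thus the direction of BBC3 against the control depended on the probe. Cy3 of the brightest probe was 77487 to 100292 intensity units, against 127 to 578 for A_23_P382775 and 41 to 58 for A_24_P305312. Whether the 3 probes read the same transcripts was not tested.

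PMAIP1, which binds MCL1 and promotes its degradation, was read in up to 10 spots. It gave −0.18 ± 0.0501 (SD, n = 9 spots) and −0.28 ± 0.132 (n = 10 spots) in FaDu after miR-489 and miR-504. In HSC3 it gave 0.31 ± 0.0539 and −0.24 ± 0.0779 (n = 10 spots each). Single spots ran from 0.25 to 0.41 on the HSC3 miR-489 array, and on the other 3 arrays every spot was below 0. The difference was 0.55 in HSC3 and 0.10 in FaDu. Whether the lines differ cannot be tested with 1 array each; the limma difference over both was 0.32 (SE 0.187, 95% interval −0.15 to 0.80).

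**Figure D2:**
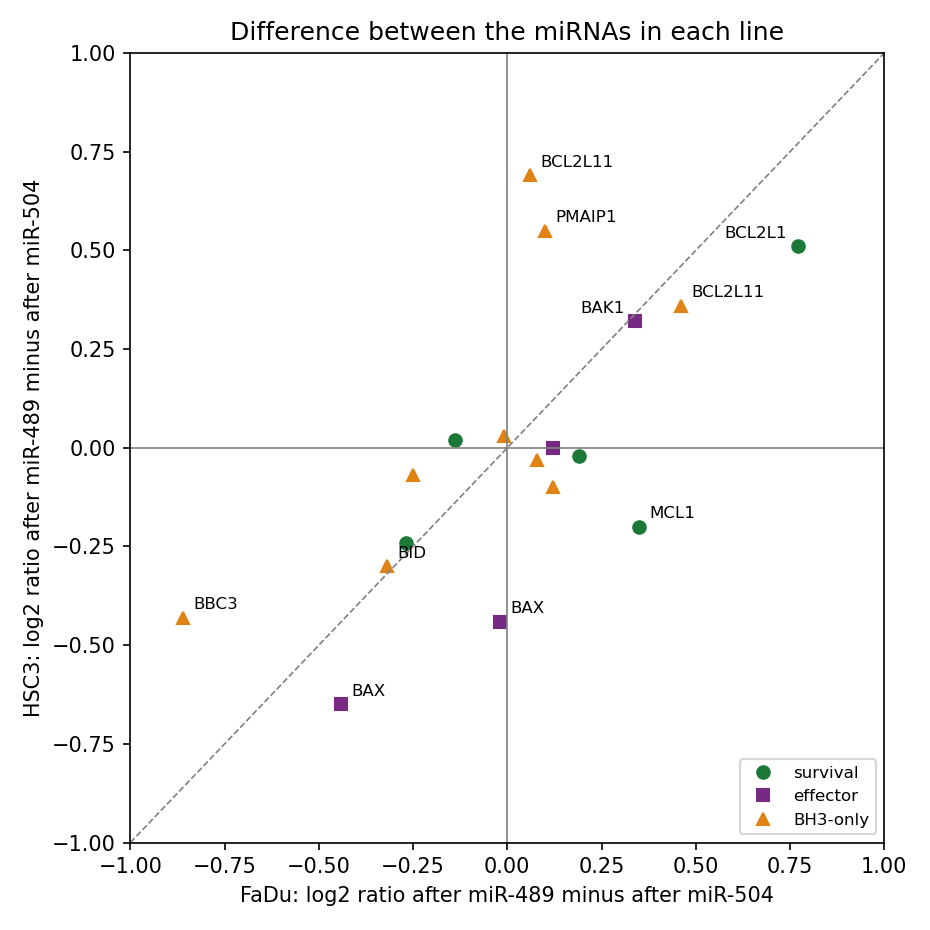
Log2 ratio after miR-489 minus that after miR-504 in FaDu (horizontal axis) and HSC3 (vertical axis), 1 point for each of the 18 member probes above background in both channels on all 4 arrays, shaped by role; the dashed line marks equal differences, and genes are named where a difference reaches 0.3. BCL2L1 lies at 0.77 and 0.51 and BBC3 (A_23_P382775) at −0.86 and −0.43, while 6 of the 18 probes have opposite signs in the 2 lines.

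Across the family, no member gene was at least 2-fold apart between the miRNAs in FaDu (0 of 10, against 3.54% of all genes measured) or in HSC3 (0 of 10, against 2.45%). At an adjusted p under 0.05 limma called 0 of the 18 member probes between the miRNAs, against 1.10% of all probes. At an unadjusted p under 0.05 there were 5 of 18 (27.8%), against 18.5% of all probes: BCL2L1, BAX (A_23_P346311), BAK1, BID (A_24_P187948) and BBC3 (A_23_P382775). With 18 probes, 5 cannot carry a statement about the family. By role the 5 were a survival gene, both effectors (BAX on A_23_P346311 alone) and 2 BH3-only genes. They did not share a direction, since BCL2L1 and BAK1 had higher ratios and the others lower ones after miR-489. Of the 18 probes 6 were higher after miR-489 in both lines, 6 lower in both and 6 of opposite sign. The median difference over the 10 genes was 0.12 in FaDu and −0.01 in HSC3, against 0.01 and 0.02 over all genes.

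**Figure D3:**
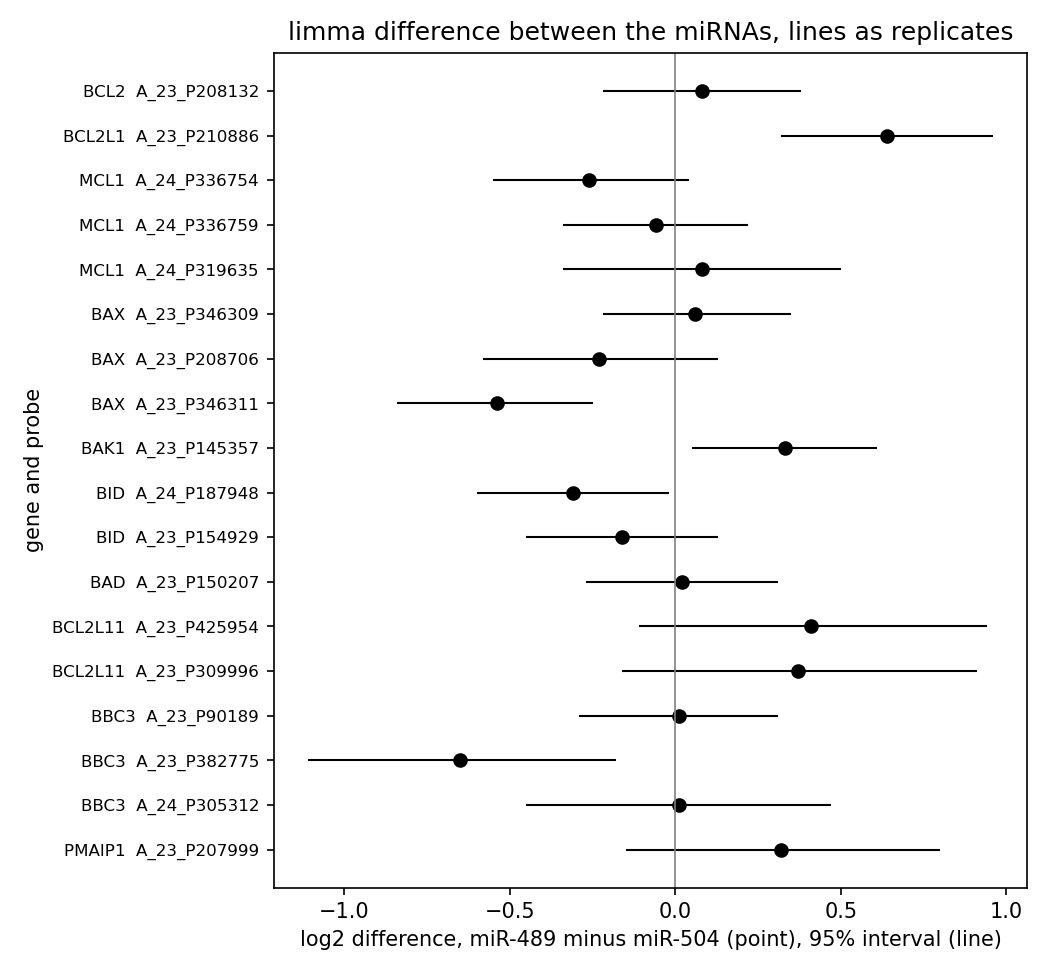
limma difference in log2 ratio, miR-489 minus miR-504, of the 18 member probes with the 2 lines as replicates; points are estimates and lines 95% intervals that are not adjusted for the number of probes. The intervals of BCL2L1 (0.32 to 0.96) and BAK1 lie above 0 and those of 1 probe each of BAX, BID and BBC3 below it, but no adjusted p was under 0.05.

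Against the control, BAX and BBC3 were at least 2-fold lower on their brightest probes on every array, that is 2 of 10 members where among all genes measured this share was 8.84% after miR-489 and 6.00% after miR-504 in FaDu, and 8.19% and 5.12% in HSC3. On all 4 arrays together this held for 2 of 10 members and 1.67% of all genes. With 10 members, 2 genes cannot carry a statement about the family, and with the probes of each gene averaged the count was 0. At least 2-fold higher were BCL2L1 and BAD on the FaDu miR-489 array (2 of 10, against 2.85%) and on the HSC3 miR-489 array (2 of 10, against 2.70%), 0 members on the FaDu miR-504 array (against 2.35%) and BAD on the HSC3 miR-504 array (1 of 10, against 1.97%). None was higher by 2-fold on all 4 arrays (0 of 10, against 1.04%). These values lay close to the threshold, from 1.01 to 1.14, and BAD at 0.99 missed it on 1 array. The median ratio of the members was −0.26, −0.21, −0.16 and −0.24 in the same order of arrays, against −0.02 to −0.01 over all genes.

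In the limma test against the control, 11 of the 18 member probes passed for miR-489, where 57.1% of all probes did, and 9 of 18 for miR-504, where 49.6% did. Both counts are near the background. For miR-489 the 5 higher probes were those of BCL2L1 (1.03, SE 0.0893), BAD (1.08, SE 0.0815), BAK1 (0.37, SE 0.0767), MCL1 (A_24_P319635) and BBC3 (A_23_P382775), and the 6 lower ones those of BCL2, MCL1 (A_24_P336754), BAX (A_23_P346309 and A_23_P346311), BID (A_24_P187948) and BBC3 (A_23_P90189). For miR-504 the higher ones were BCL2L1 (0.38, SE 0.0893), BAD (1.06, SE 0.0815), MCL1 (A_24_P319635), BAX (A_23_P208706) and BBC3 (A_23_P382775), and the lower ones BCL2, BAX (A_23_P346309), BID (A_24_P187948) and BBC3 (A_23_P90189). The part of the dye in these ratios was not tested. By genes, 8 members passed for miR-489 and 6 for miR-504, and without the FaDu miR-504 array the latter was 3.

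Between the lines, the control transfectants of FaDu held less BID RNA than those of HSC3 on both BID probes. Cy3 levels were taken as log2 intensity relative to the median probe of the array. Among probes measured in Cy3, the 2 arrays of a line differed by a median of 0.153 in FaDu and 0.206 in HSC3, and 95% of them by less than 0.546 and 0.693. BID had 3.72 and 3.74 in FaDu against 5.30 and 4.71 in HSC3. Its FaDu level was thus 2.42-fold lower, and no FaDu array reached an HSC3 array. The second BID probe gave 0.74 and 0.78 against 2.31 and 2.04, or 2.67-fold lower. In Cy5 the differences were −1.38 and −1.40, so that the miRNA transfectants differed between the lines in the same way. BID was the single member whose brightest probe was at least 2-fold lower in FaDu (1 of 10, against 12.9% of all genes), and 0 of 10 were as much higher, against 12.8%. There was no test, since the Cy3 samples of a line may be the same RNA. The share of all genes without overlap between the lines was not counted, so a lack of overlap in a member has no background beside it.

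A BBC3 probe that was not the brightest, A_23_P382775, showed a wider gap, with −1.06 and −0.98 in FaDu against 1.09 and 0.69 in HSC3, or 3.76-fold lower in FaDu. On the brightest BBC3 probe the lines overlapped, at 8.30 and 8.20 against 8.44 and 8.23. BCL2L11 went the other way: A_23_P425954 had −2.16 and −2.37 in FaDu against −2.59 and −3.00 in HSC3, and A_23_P309996 had −1.99 and −2.32 against −2.84 and −3.08, which are 1.45-fold and 1.75-fold higher in FaDu. The first of these differences, 0.53, lay within the range of 95% of probes between arrays of 1 line and was 0.26 without background subtraction. PMAIP1 had 0.46 and −0.01 against −0.06 and −0.65, so that the lines did not overlap and differed by 0.59, beside gaps of 0.47 and 0.59 between the arrays of FaDu and of HSC3. MCL1 (−0.36 on its brightest probe), BAK1 (−0.38) and BAD (−0.40) were lower in FaDu, by less than the range within which 95% of probes differed between arrays of 1 line. The difference was 0.00 for BCL2 and −0.23 for BCL2L1. For BAX it was 0.00 on the brightest probe, but −0.43 on A_23_P208706 and −0.66 on A_23_P346311, where the lines did not overlap in either channel.

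**Figure D4:**
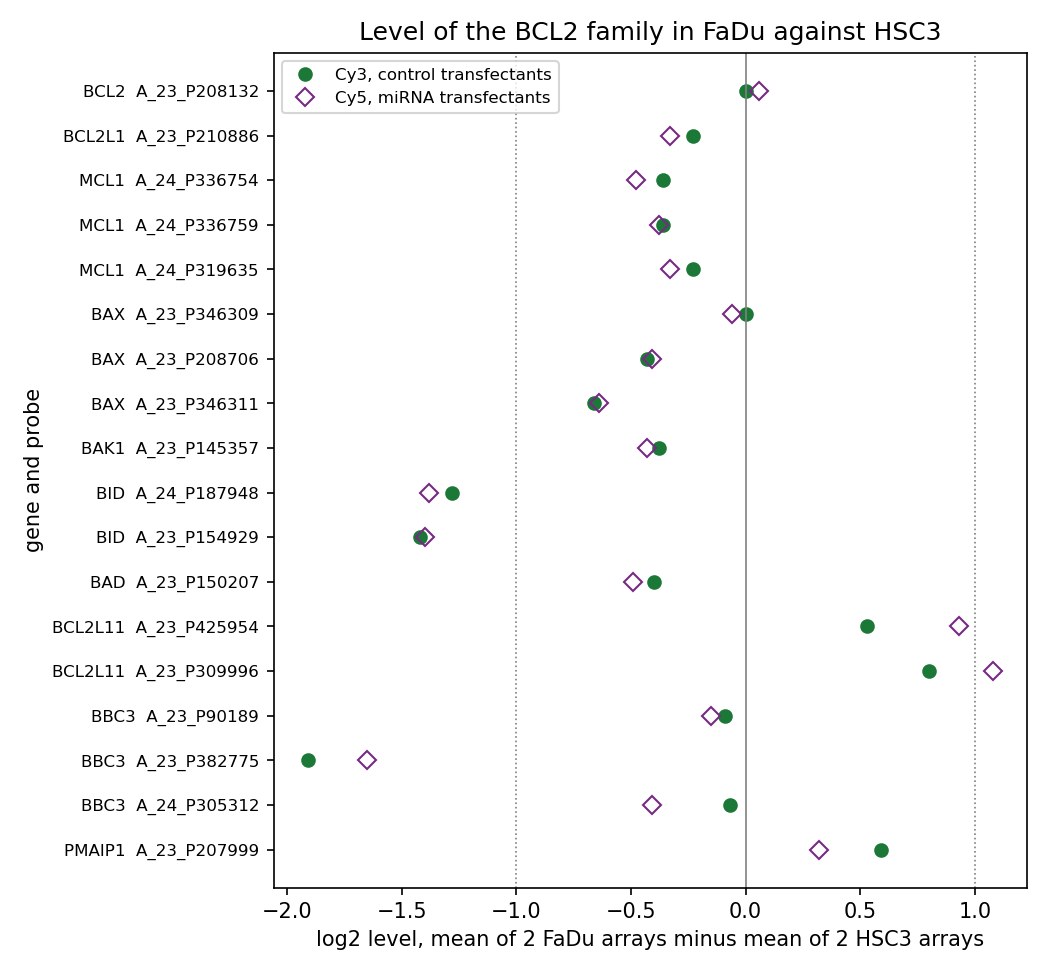
Log2 level in FaDu minus that in HSC3 (mean of 2 arrays each) for the 18 member probes above background in Cy3 on all 4 arrays; filled circles are Cy3 (control transfectants), open diamonds Cy5 (miRNA transfectants), and dotted lines mark 2-fold. The BID probes lie at −1.28 and −1.42 and the BBC3 probe A_23_P382775 at −1.91 in Cy3, whereas the 2 BCL2L11 probes lie at 0.53 and 0.80.

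The genes around the family were described by lists of pathway members. Of 11 other BCL2 family genes 10 were on the arrays, 6 were above background in Cy3 on all 4 arrays, and 0 of these 6 were called between the miRNAs; their limma differences ran from −0.26 to 0.22. The 15 genes of caspase activation downstream of mitochondria, such as those for the apoptosome and the caspase inhibitors, were all measured and 0 were called, with differences from −0.55 to 0.64. Of the 4 genes that control MCL1 turnover by ubiquitin 0 were called either (−0.86 to 0.11). None of these lists held a gene measured above background that was at least 2-fold apart between the miRNAs within a line. Their median differences lay between −0.17 and 0.01, against 0.01 and 0.02 over all genes.

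The death receptor branch, which feeds into mitochondria through BID, held the 1 pathway gene that limma called between the miRNAs. This list had 10 genes tested, and the other pathway lists had 6, 15 and 4 with 0 calls. Of all probes, 1.10% were called. TNFRSF10B encodes DR5, a receptor for the ligand TRAIL and a p53 target. Its brighter probe, A_24_P218265, gave −0.84 and 0.07 in FaDu and −1.0 and 0.17 in HSC3 after miR-489 and miR-504. The level was near that of the control after miR-504 and about 2-fold lower after miR-489 in both lines. The differences were −0.91 and −1.17, and limma gave −1.04 (SE 0.121, adjusted p = 0.0395). A second TNFRSF10B probe, A_23_P169030, gave 0.23, 0.06, 0.11 and 0.04 and did not show it (limma difference 0.12, SE 0.113, adjusted p = 0.644). The call on the brighter probe was made under the 7 other scalings (adjusted p from 0.00462 to 0.0453) and with the cell line as a block (0.0298), while without any 1 of the 4 arrays the difference was −1.12 to −0.96 and not called (0.112 to 0.294), as was the case for every probe of the arrays (0 called). Beside it, CASP10 and TNFSF10, the gene for TRAIL, were at least 2-fold apart in FaDu (−1.08 and −1.46), as were 3.54% of all genes, and gave 0.05 and 0.09 in HSC3; they were noted after their values were seen, the difference between the lines was not tested, and neither was called (adjusted p = 0.383 and 0.441).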

How the data were processed

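Per the labels, Cy5 carried the miRNA transfectant and Cy3 the control. The authors deposited scanner intensities (Feature Extraction 9.5.3.1), not normalised, with marks for outliers and for signal above background, and log10 ratios that this software had dye-normalised, which were used as an alternative. The study's methods name other software, background-subtracted median intensities and a global normalisation, which the main values follow. The arrays shared 1 slide and 1 scan, so neither could be fitted.

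Log2 ratios were computed after subtracting median background from median spot intensity; a dim signal was raised to the lowest one above background, 118 to 137 outlier spots were left out and no spot was saturated (0). Medians of 0.58, 0.65, 0.58 and 0.45 were removed. Spots were averaged by probe, and a gene took its brightest probe in Cy3. A gene was counted lower only where Cy3, and higher only where Cy5, was above background. limma 3.58.1 (R 4.3.3) was fitted to 20914 probes with Cy3 above background on 4 arrays, with 2 residual degrees of freedom, Benjamini-Hochberg at 0.05 and the lines as replicates; as arrays of a line share its cells, a fit with the line as block was also run. Accessions of 20 of 22 member probes matched RefSeq (GRCh38.p14); the build of the array's coordinates is not stated. Members and lists were chosen with earlier results of these data known. Beyond the members, genes were named if they were at least 2-fold changed on all 4 arrays, 2-fold apart in both lines or called by limma between the miRNAs; others are marked as noted after their values were seen. Array number limits the precision.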

Additional observations from a re-analysis of the deposited data

Results flagged for a closer look

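On the brightest probes of 3 members the difference between miR-489 and miR-504 had opposite signs in the 2 lines: BCL2 (0.19 in FaDu and −0.02 in HSC3), BAD (0.08 and −0.03) and BBC3 (0.12 and −0.10). All but the first were at most 0.12 in size, each rests on 1 spot per array, and the difference between the lines was not tested.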

How the results depend on the processing

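The difference of BCL2L1 between the miRNAs kept its direction under every alternative run (0.51 to 0.75); with normexp (offset 50) and loess (span 0.3) together it was 0.51 and passed (adjusted p = 0.0499), so that on brightest probes 1 member was called between the miRNAs in place of 0, and a dimmer BAX probe passed as well (0.0444). The adjusted p of BCL2L1 was 0.122 with averaged probes, 0.189 to 0.463 without 1 array and 0.673 with no filter on dim probes. Without any 1 array 0 members, and 0 of all probes, were called between them (2039 to 3658 probes at an unadjusted p under 0.05, against 3869 of 20914 with all arrays). The replicate block by cell line left the members called at 0 between the miRNAs and 8 for miR-489, with 7 in place of 6 for miR-504, while calls over all probes rose from 230 to 578. For miR-504 against the control 3 members were called with the probes of a gene averaged.

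Counts past 2-fold moved. Lower members were 1 with normexp and 0 without background subtraction (FaDu miR-489), 1 without subtraction (FaDu miR-504), 1 with either (HSC3 miR-489) and 0 without subtraction (HSC3 miR-504), and 0 on each array with averaged probes. Higher members on the FaDu miR-489 array were 1 with normexp, no subtraction, loess or the deposited ratios and 0 with normexp and loess or total-signal scaling. On the FaDu miR-504 array they were 1 with normexp, no subtraction, mean intensity or a 1.5-fold threshold. On the HSC3 miR-489 array they were 1 with normexp, no subtraction or mean intensity, and there and on the HSC3 miR-504 array 0 with loess, normexp and loess, total signal or the deposited ratios. At 1.5-fold, 1 member was apart in FaDu. Total-signal scaling moved the median of all probes by −0.21 to −0.17. The causes were not tested. The count of members 2-fold apart between the lines was 1 under every alternative run.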
